A study of Rattus norvegicus with 2 samples.

Results

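Pou2f3, Gfi1b, Spib, Prox1, Meis1, Tcf4, Cebpd and Grhl3 are 8 genes for transcription factors, of 32883 genes counted, that were selected because of their transcript levels in tuft cells and in CFTR high expressers (CHEs) of the rat small intestine. Jejunal epithelium came from 2 rats, and each rat gave 1 droplet-based library of single cells in which unique molecular identifiers (UMIs) count transcripts. Both animals were adult male Sprague Dawley rats aged 6 to 8 weeks, outbred and unmodified, that had been fasted overnight. The proximal jejunum was stripped of its epithelium with EDTA and dispase, so all cells belong to 1 condition and the comparisons are between cell classes within the rats. Cells of 1 rat are not replicates, so n = 2 rats throughout, and the spread between 2 animals is known only coarsely.

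Tuft cells are rare chemosensory cells of the gut lining that use a taste-type signalling cascade and alert the immune system to parasites. CHEs, also called Best4+ cells, carry abundant chloride channel Cftr at their surface and occur in the small intestine of rats and humans but not of mice. Transcription factors bind DNA and set which genes a cell uses. Pou2f3, a POU-domain factor, is required for tuft cells to form, Gfi1b is a zinc-finger repressor known from red blood cells, platelets and tuft cells, and Spib is an Ets-family factor known from B cells and plasmacytoid dendritic cells. Prox1 is a homeobox factor of lymphatic vessels and of endocrine cells, Meis1 is a homeobox factor that pairs with Pbx proteins, Tcf4 is an E protein that binds E-boxes, Cebpd is a leucine zipper factor of the acute phase response and Grhl3 is a grainyhead factor of skin and other barriers.

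A cell was called a tuft cell when it held a UMI of 3 or more of 11 measured tuft markers, none of them a transcription factor, and a CHE when it held UMIs of both the chloride channel Best4 and the proton channel Otop2. Among cells with over 1000 UMIs and at most 40% mitochondrial UMIs (9345 in rat 1 and 5523 in rat 2), these rules found 151 and 193 tuft cells and 6 and 67 CHEs. The comparison classes were 41 and 12 endocrine cells, 478 and 206 goblet cells, 1069 and 23 crypt cells, 1016 and 1570 immune cells, and 3300 and 1233 enterocytes. Cells that met several of these rules (5 and 7) and cells that met none were left out. Depth differed between the libraries, with 99986348 UMIs over 12033 barcodes in rat 1 and 66469907 UMIs over 8252 barcodes in rat 2, and 28 barcodes occurred in both. Median depth per cell also differed between classes, from 1772 UMIs in immune cells of rat 1 to 21194 UMIs in crypt cells of rat 2, with 3640 and 7077 UMIs in tuft cells and 11623.5 and 13513 UMIs in CHEs.

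The rule fixes the level of the tuft markers, which is given as a description. All 11 tuft markers were detected in the tuft cells of each rat, at a summed level of 3667 and 6304 CPM (UMIs of a gene for every 1000000 UMIs of the summed cells), and 1 and 5 of them were detected in the CHEs, at 12.7 and 39.2 CPM. Cftr, which defines CHEs and which the rules did not use, stood at 1616 and 2877 CPM in CHEs and at 27.6 and 29.9 CPM in tuft cells. Apart from counts of 0, intervals given with levels or ratios are exact 95% intervals on the UMI counts (Poisson for levels) and cover counting error only. In rat 1, 1 UMI in the 6 CHEs already equals 12.7 CPM, and a gene with no UMI there could lie anywhere up to 38.2 CPM (3 UMIs, the limit used here for every count of 0), against 3.36 CPM in rat 2.

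RefSeq (GRCr8) promoters, from 250 bases before to 50 bases after the start of the gene, were found for 5 of the 8 factors. Those of Gfi1b, Spib and Meis1 are printed because the first of these genes was read in both cell types, the next abundantly in both, and the last almost only in CHEs. Capitals mark matches to motifs bound by the families of these factors except Prox1, for which no motif was searched. Both strands were searched for the octamer ATGCAAAT, the Ets motif GAGGAA, the Meis motif TGACAG, the E-box CANNTG, the C/EBP motif TTGCNNAA, the Gfi motif AATCNC and the grainyhead motif AACCGG.
Gfi1b promoter, chr3:32350852-32351151, minus strand: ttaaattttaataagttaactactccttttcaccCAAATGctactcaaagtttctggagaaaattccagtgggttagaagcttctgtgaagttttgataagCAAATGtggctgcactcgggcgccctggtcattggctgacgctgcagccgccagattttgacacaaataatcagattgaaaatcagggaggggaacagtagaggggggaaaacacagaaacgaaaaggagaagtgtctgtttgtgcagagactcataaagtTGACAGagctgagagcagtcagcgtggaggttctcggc
Spib promoter, chr1:104161246-104161545, minus strand: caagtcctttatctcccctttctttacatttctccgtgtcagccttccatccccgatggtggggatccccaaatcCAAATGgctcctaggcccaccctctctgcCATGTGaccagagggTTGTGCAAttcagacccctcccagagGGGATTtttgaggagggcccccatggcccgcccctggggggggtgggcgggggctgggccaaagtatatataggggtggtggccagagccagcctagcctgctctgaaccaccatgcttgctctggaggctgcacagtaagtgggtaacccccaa
Meis1 promoter, chr14:97495034-97495333, minus strand: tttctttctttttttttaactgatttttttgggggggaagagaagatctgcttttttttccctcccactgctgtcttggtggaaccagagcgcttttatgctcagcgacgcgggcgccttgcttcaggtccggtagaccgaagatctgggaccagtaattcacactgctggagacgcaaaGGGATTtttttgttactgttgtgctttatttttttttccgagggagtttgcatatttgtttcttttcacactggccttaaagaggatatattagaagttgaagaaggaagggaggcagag
The Gfi1b window held 2 E-boxes, both CAAATG, and a Meis match TGACAG that begins 12 bases after the start. The Spib window held 2 E-boxes (CAAATG and CATGTG), a C/EBP match and a Gfi match that reads GGGATT on the printed strand, and the Meis1 window held the same GGGATT and no other match.

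These motifs differ in how common they are. Of 33469 promoters of this length, 72.1% held an E-box, 34.9% a Gfi match, 27.6% an Ets match, 19.0% a Meis match, 10.6% a C/EBP match, 7.04% a grainyhead match and 1.78% the octamer. Among the promoters of the 5 factors, 4 held a Gfi match (Spib, Meis1, Tcf4 and Grhl3), 3 an E-box (Gfi1b, Spib and Grhl3), 2 an Ets match (Tcf4 and Grhl3), 2 a C/EBP match (Spib and Tcf4) and 1 a Meis match (Gfi1b). None of the 5 held the octamer or the grainyhead motif within these windows. The matches are letters in a sequence and were not measured as bound sites.

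The levels divided the factors into those of tuft cells (Pou2f3, Tcf4), those read in both cell types (Gfi1b, Spib, Prox1) and those of CHEs (Meis1, and Grhl3 in rat 2). Cebpd was set apart, since its low levels in tuft cells and CHEs overlapped with those in endocrine cells. For 6 of the 8 factors the class with the highest level was tuft cells or CHEs in both rats. The exceptions were Cebpd, highest in endocrine cells of rat 2, and Grhl3, which had 1 UMI among all cells kept from rat 1. Since the factors were selected on these levels, the levels are a description and carry no test.

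**Figure D1:**
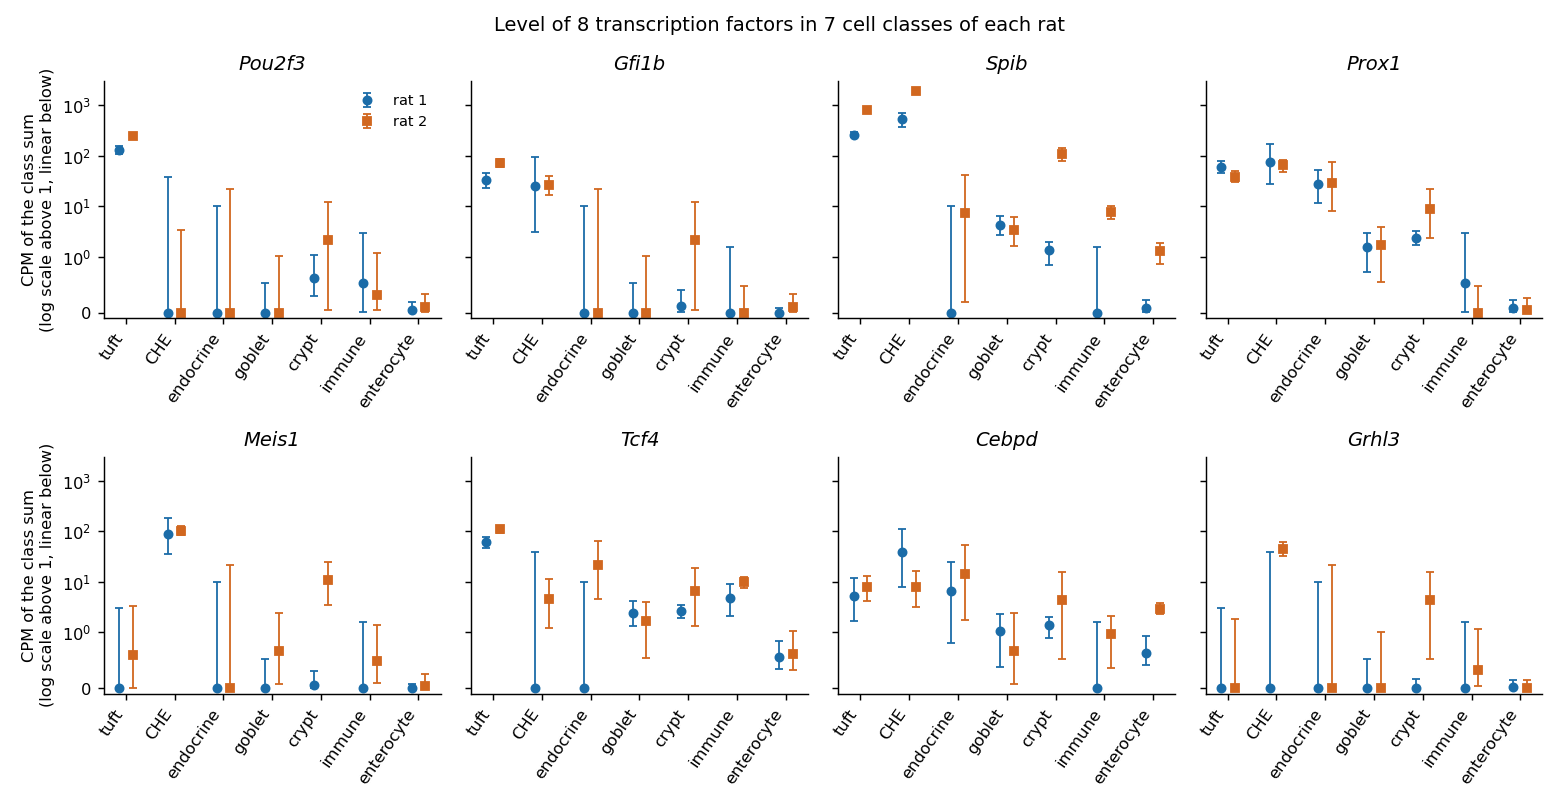
Level of each of the 8 factors (vertical axis, CPM, logarithmic above 1 and linear below) in 7 cell classes of rat 1 (circles) and rat 2 (squares), with 95% exact Poisson intervals, or bars up to the level of 3 UMIs where none was seen. Pou2f3 and Tcf4 peak in tuft cells, Meis1 in CHEs, and Spib and Gfi1b are high in both, while the bars of the 6 CHEs of rat 1 reach 38.2 CPM where no UMI was seen.

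Pou2f3 was read almost entirely in tuft cells. It stood at 129.9 CPM (95% interval 108 to 155, 127 UMIs) in rat 1 and at 247 CPM (224 to 272, 413 UMIs) in rat 2. The CHEs of both rats held no Pou2f3 UMI, nor did endocrine or goblet cells, so tuft cells were at least 3.40-fold higher than CHEs in rat 1 and at least 73.5-fold higher in rat 2, against a floor of 3 UMIs per class sum. Crypt cells came next, at 0.611 CPM (11 UMIs in 6 of 1069 cells) in rat 1 and 2.15 CPM (1 UMI) in rat 2, and no class overlapped with tuft cells. Tuft cells held 86.4% of the Pou2f3 UMIs of all cells kept from rat 1 and 95.6% of those from rat 2, although tuft cells and CHEs together made up 1.68% and 4.71% of these cells.

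Pou2f3 UMIs were present in 80 of 151 tuft cells (53.0%) of rat 1 and 154 of 193 (79.8%) of rat 2. In enterocytes, taken here as the background, the share was 0.0606% and 0.162% at a median depth of 11600.5 and 16982 UMIs. When each cell was thinned to 1000 UMIs, 16.6% and 21.2% of tuft cells kept a Pou2f3 UMI and no enterocyte did.

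Tcf4 followed the same pattern at a lower contrast. It stood at 60.4 CPM (46.0 to 77.9, 59 UMIs) in tuft cells of rat 1 and at 109 CPM (93.6 to 126, 182 UMIs) in those of rat 2. CHEs had no UMI in rat 1 and 4 UMIs (4.48 CPM) in rat 2, and tuft cells were 24.3-fold higher than CHEs in rat 2 (9.33 to 90.1). Tcf4 also had a measurable level elsewhere, namely 2.61 and 6.44 CPM in crypt cells, 4.69 and 9.84 CPM in immune cells, and 0 and 21.9 CPM (3 UMIs) in endocrine cells. Endocrine, immune, crypt cells and CHEs could not be ordered, because their values overlapped between the rats. Tuft cells and CHEs together held 29.6% of the Tcf4 UMIs of rat 1 and 55.9% of those of rat 2, the rest being spread thinly over abundant classes.

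Gfi1b was read in both cell types. It stood at 32.7 CPM (22.4 to 46.2, 32 UMIs) and 73.0 CPM (60.6 to 87.1, 122 UMIs) in tuft cells, and at 25.4 CPM (2 UMIs in 1 cell) and 25.8 CPM (16.3 to 38.7, 23 UMIs in 18 of 67 cells) in CHEs. Tuft cells exceeded CHEs 2.83-fold (1.80 to 4.64) in rat 2, while the ratio in rat 1, 1.29 (0.328 to 11.1), was within counting error. No other class reached 3 CPM, and endocrine, goblet and immune cells held no UMI in either rat. Of 4 measured markers of red cells and platelets, 3 were detected in tuft cells of each rat, at a summed 97.2 and 8329 CPM, and 2 and 3 in CHEs, at 25.4 and 79.5 CPM. Their sum in enterocytes was 491 and 1368 CPM. The platelet gene Itga2b had 8 and 3 UMIs in tuft cells and 1 in the CHEs of each rat, and Pf4, which defines platelets, had none in either. Itga2b also stood at 9.74 and 14.3 CPM in enterocytes, so it does not by itself name platelets. Hemoglobin transcripts mark red blood cells, in which Gfi1b is known. They made up 129 and 10421 CPM of the tuft cell sums and 12.7 and 105 CPM of the CHE sums. Over 1% hemoglobin UMIs occurred in 12 of the 193 tuft cells of rat 2, in no tuft cell of rat 1 and in no CHE. Leaving out such cells, an alternative chosen after the data were seen, could therefore change only the tuft cell sum of rat 2. Its Gfi1b level stayed within the counting interval. The part of red cell transcripts in the Gfi1b levels was not tested.

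Spib was high in CHEs and in tuft cells. The 6 CHEs of rat 1 gave 522 CPM (374 to 708, 41 UMIs) and the 67 CHEs of rat 2 gave 1874 CPM (1785 to 1966, 1673 UMIs). Tuft cells gave 259.9 CPM (229 to 294, 254 UMIs) and 797 CPM (755 to 841, 1333 UMIs). Over all cells of each class CHEs were higher within each rat, by 2.01-fold (1.41 to 2.80) and 2.35-fold (2.19 to 2.53), while the values of the 2 classes overlapped between rats. In rat 1 this order rested on the 37 tuft cells with over 5000 UMIs, because the 114 tuft cells below that depth gave 531 CPM, level with the 522 CPM of the CHEs. Every CHE of rat 1 and 65 of 67 CHEs of rat 2 held a Spib UMI, as did 72.2% and 95.3% of tuft cells, against 0.0909% and 2.11% of enterocytes. After thinning to 1000 UMIs the shares were 16.7% and 80.6% in CHEs and 31.8% and 62.2% in tuft cells.

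Outside these classes Spib was concentrated in few cells of some classes and spread thinly over others. In rat 2, 47 UMIs lay in 32 of 1570 immune cells, 28 in 26 of 1233 enterocytes and 150 in 89 of 2169 unassigned cells. In goblet cells of rat 1, 24 UMIs lay in 4 of 478 cells, 18 of them in 1 cell. In crypt cells of rat 2, all 49 UMIs (105 CPM) lay in 2 of 23 cells, and these cells also held 1496 and 750 UMIs of Guca2b, the peptide uroguanylin that made up 58320 and 139901 CPM of CHEs. The larger of the 2 cells held 45 Spib, 3 Prox1 and 5 Meis1 UMIs, and the smaller held 4 Spib and 2 Grhl3 UMIs. Neither had a Best4 or Otop2 UMI. Without them crypt cells of rat 2 held no Spib, Meis1 or Grhl3 UMI.

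Prox1 was read in CHEs, tuft cells and endocrine cells alike. It stood at 76.3 CPM (28.0 to 166, 6 UMIs) and 63.9 CPM (48.4 to 82.7, 57 UMIs) in CHEs, at 59.3 CPM (45.1 to 76.7, 58 UMIs) and 38.3 CPM (29.5 to 48.9, 64 UMIs) in tuft cells, and at 26.9 CPM (8 UMIs) and 29.2 CPM (4 UMIs) in endocrine cells. Over all cells of each class, the order CHEs, tuft cells, endocrine cells, crypt cells, goblet cells held without overlap between the rats. The first step of it turned in rat 1 without the tuft cells of over 5000 UMIs, where tuft cells stood at 102 CPM, above the 76.3 CPM of CHEs. Counting error alone covers part of that order, since CHEs exceeded tuft cells 1.67-fold (1.15 to 2.42) in rat 2 but 1.29-fold (0.453 to 2.97) in rat 1. Crypt cells had 2.33 and 8.58 CPM (3 of the 4 UMIs of rat 2 in 1 cell rich in Guca2b), and goblet cells 1.58 and 1.69 CPM. Markers of lymphatic and blood endothelium, where Prox1 is also known, gave 3 and 11 UMIs in the tuft cells, all of Lyve1, and none in CHEs.

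Meis1 separated CHEs from all other classes. It stood at 89.1 CPM (35.8 to 183, 7 UMIs in 3 of 6 cells) and at 103 CPM (83.1 to 126, 92 UMIs in 40 of 67 cells) in CHEs. Tuft cells held no Meis1 UMI in rat 1 and 1 UMI (0.598 CPM) in rat 2, so CHEs were at least 29.0-fold higher in rat 1 and 172-fold higher (30.2 to 6879) in rat 2. Endocrine cells held none, and the 5 crypt UMIs of rat 2 lay in the 1 cell described above. Among CHEs of rat 2, Meis1 was 222 CPM (145 to 325, 26 UMIs) in the 19 cells with up to 10000 UMIs and 85.1 CPM (65.8 to 108, 66 UMIs) in the 48 deeper cells, whereas Spib was 2575 CPM and 1768 CPM and Prox1 42.6 and 67.1 CPM. In rat 1 the 2 shallower CHEs held 4 Meis1 UMIs, all in 1 cell, and the 4 deeper ones 3.

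Grhl3 was detected in CHEs of rat 2. There it stood at 44.8 CPM (32.0 to 61.0, 40 UMIs in 26 of 67 cells), and CHEs held 80.0% of the 50 Grhl3 UMIs of that rat. Tuft cells of both rats held no UMI, so CHEs of rat 2 were at least 25-fold higher. The 6 CHEs of rat 1 held none, which allows up to 38.2 CPM and overlaps with the interval of rat 2, so a difference between the rats was not detectable at this depth.

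Cebpd followed the label of a tuft cell and CHE factor only in part. It stood at 38.2 CPM (7.87 to 112, 3 UMIs) and 7.84 CPM (3.15 to 16.2, 7 UMIs) in CHEs and at 5.12 CPM (5 UMIs) and 7.78 CPM (13 UMIs) in tuft cells. Endocrine cells, with 6.72 and 14.6 CPM from 2 UMIs each, overlapped with both. Crypt cells, with 1.39 and 4.29 CPM, and the remaining classes lay lower without overlap between the rats. In rat 2 the ratio of tuft to crypt cells, 1.81 (0.410 to 16.5), was within counting error. Tuft cells and CHEs held 4.91% and 15.2% of the Cebpd UMIs, against 1.12% and 5.27% of all UMIs of the cells kept. Enterocytes held 25 and 63 Cebpd UMIs, 13 of the latter in 1 cell. In rat 1 the CHE level exceeded that of tuft cells 7.46-fold (1.16 to 38.3), and in rat 2 the ratio was 1.01 (0.341 to 2.72).

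Cells at the edge of the tuft rule shared the pattern in part. With exactly 3 tuft markers, 11 and 7 cells gave 135 and 95 CPM of Pou2f3 (10 UMIs, and 5 UMIs that lay in 1 cell), and with 5 or more markers 123 and 181 cells gave 131 and 253 CPM. Just outside the rule, with 2 markers, 13 cells of rat 1 gave 34.0 CPM (5 UMIs) and 11 cells of rat 2 gave no UMI. At the edge of the CHE rule, cells with UMIs of only 1 of Best4 and Otop2 (3 and 32 cells) gave 1546 and 1093 CPM of Spib and 99.7 and 84.8 CPM of Meis1. For Meis1 these values lay within the intervals of the CHEs. For Spib they lay above that of the CHEs in rat 1 and below it in rat 2. Only 2 CHEs, both of rat 2, had 1 UMI of each channel, and they held 11 Spib UMIs and 1 Meis1 UMI.

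The level in tuft cells differed between the rats by more than counting error for 5 factors. Rat 2 was higher for Pou2f3 (1.90-fold, 1.55 to 2.34), Gfi1b (2.23-fold, 1.5 to 3.40), Spib (3.07-fold, 2.68 to 3.52) and Tcf4 (1.80-fold, 1.34 to 2.46), and lower for Prox1 (0.645-fold, 0.445 to 0.937). The summed level of the tuft markers was also higher in rat 2, at 6304 against 3667 CPM. Of the single markers, Rgs13 stood at 1308 and 1280 CPM and Gng13 fell from 242.5 to 96.3 CPM. The other measured markers were higher in rat 2. In rat 1, the 114 tuft cells with up to 5000 UMIs had 7445 CPM of tuft markers and the 37 deeper cells had 1433 CPM, whereas in rat 2 the corresponding 47 and 146 cells had 7286 and 6202 CPM. Of the 37 deep cells of rat 1, 14 were called doublets by Scrublet. Enterocyte markers stood at 56591 CPM in the 37 deep cells against 42048 CPM in the shallower cells of rat 1. In rat 2 they likewise stood at 45515 CPM in the deep against 30530 CPM in the shallower cells.

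In those deep cells of rat 1, Pou2f3 stood at 60.2 CPM, against 248 CPM in the shallower ones. Gfi1b was 14.7 against 63.3 CPM, Spib 99.3 against 531 CPM, Tcf4 24.4 against 121 CPM and Prox1 34.2 against 102 CPM. Among cells with up to 5000 UMIs, rat 2 exceeded rat 1 1.10-fold (0.749 to 1.61) for Pou2f3, 1.71-fold (0.857 to 3.34) for Gfi1b and 1.42-fold (0.844 to 2.34) for Tcf4, all within counting error. Spib remained 1.74-fold higher in rat 2 (1.39 to 2.16) and Prox1 0.375-fold (0.129 to 0.896). Among the deeper cells, rat 2 exceeded rat 1 4.05-fold for Pou2f3 (2.89 to 5.85), 4.73-fold for Gfi1b (2.40 to 10.6), 7.90-fold for Spib (6.10 to 10.4) and 4.19-fold for Tcf4 (2.46 to 7.67), with rat 2 at 244, 69.3, 784 and 102 CPM. Prox1 there had a ratio of 1.12 (0.669 to 1.94). Scrublet called 16 of the 151 tuft cells of rat 1 and none of rat 2, where it has not worked. Without the called cells, all 112 levels of the factors stayed within their counting intervals. The part of doublets, of depth and of the software version in this difference was not tested.

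**Figure D2:**
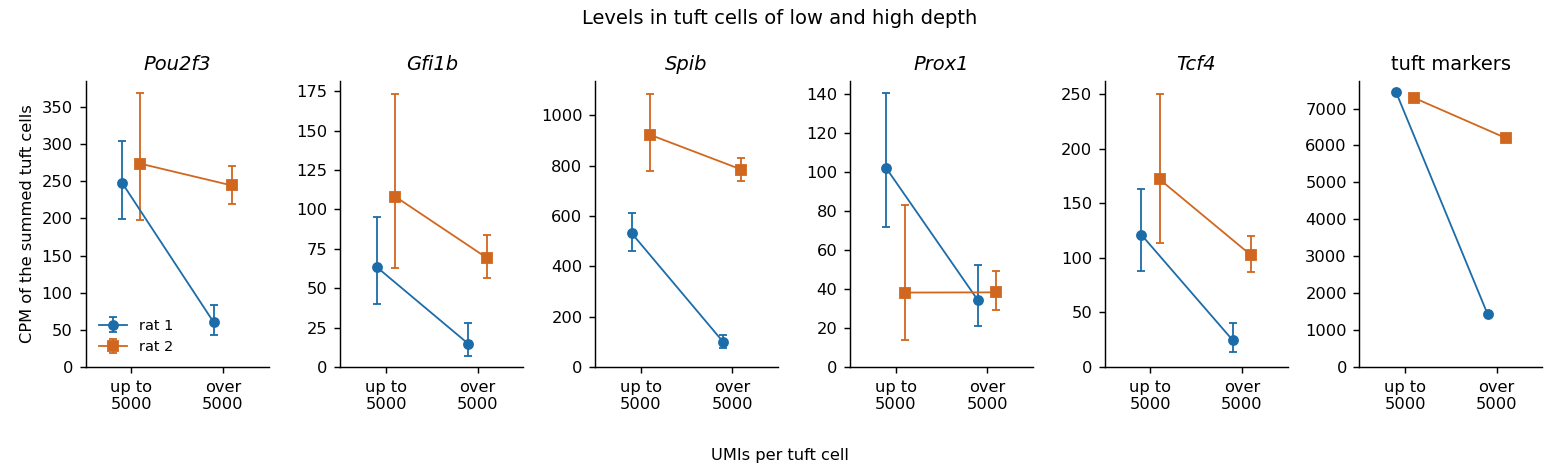
Levels of 5 factors and of the summed tuft markers (vertical axes, CPM, each from 0) in tuft cells with up to 5000 UMIs and with over 5000 UMIs, for rat 1 (circles) and rat 2 (squares), with 95% exact Poisson intervals for the factors. In rat 1 all 5 factors and the tuft markers are lower in the 37 deep cells than in the 114 shallow cells, and in rat 2 the 2 groups lie closer together.

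Several factors were read in the same cells. Of the 5 factors of tuft cells (Pou2f3, Gfi1b, Spib, Prox1, Tcf4), at least 1 had a UMI in 138 of 151 tuft cells of rat 1 (91.4%) and 189 of 193 of rat 2 (97.9%), and at least 3 in 52 and 131 cells. Of the 5 factors read in CHEs (Spib, Prox1, Meis1, Gfi1b, Grhl3), at least 1 had a UMI in all 6 CHEs of rat 1 and 65 of 67 of rat 2, and at least 3 in 3 and 35 cells. Each of the 40 CHEs of rat 2 with a Meis1 UMI, the 28 with Prox1 and the 26 with Grhl3 also held a Spib UMI. Spib was read in 65 of all 67 CHEs of that rat, so such an overlap says little about joint expression. In tuft cells of rat 2, 98.7% of the 154 cells with Pou2f3 also held Spib, against 82.1% of cells without Pou2f3, and in rat 1 the shares were 75% and 69.0%.

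Deeper cells show more of every gene, so a higher share among cells with another factor does not separate depth from joint expression. Tcf4 was read in 41.2% and 62.3% of tuft cells with Pou2f3 and in 28.2% and 33.3% of those without. For other pairs the shares did not rise together, as for Prox1, which was read in 15.4% and 22.5% of tuft cells with Gfi1b and in 30.4% and 23.9% of those without. Among CHEs of rat 2, Grhl3 was read in 16 of 40 cells with Meis1 and in 10 of 27 without. These shares have no test, since cells of 1 rat are not replicates.

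**Figure D3:**
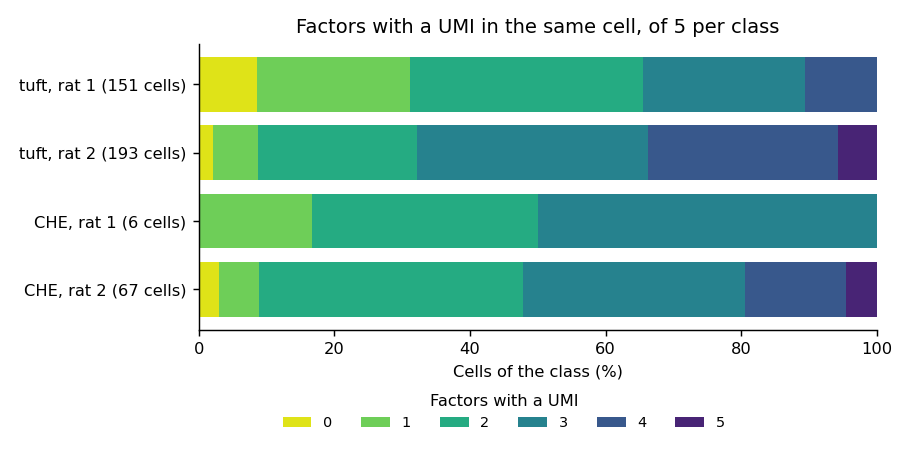
Share of cells (horizontal axis, %) with UMIs of 0 to 5 of the 5 factors named for the class: Pou2f3, Gfi1b, Spib, Prox1 and Tcf4 for tuft cells, and Spib, Prox1, Meis1, Gfi1b and Grhl3 for CHEs. The median tuft cell held 2 factors in rat 1 and 3 in rat 2, and 11 tuft cells and 3 CHEs of rat 2 held all 5.

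Between classes that are neither tuft cells nor CHEs the factors are given as a description with no test, because they were chosen with the levels of these classes in view and most of them were abundant enough for a test only through tuft cells or CHEs. Ratios of CPM between endocrine and goblet cells, and between crypt cells and immune cells or enterocytes, carry exact counting intervals within each rat. Among them, only Prox1 exceeded 1 by more than counting error in both rats between endocrine and goblet cells. Between crypt cells and enterocytes Prox1, Spib and Tcf4 did so in both rats.

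Prox1 stood 17.0-fold higher (5.72 to 49.7) in endocrine than in goblet cells of rat 1 and 17.3-fold higher (3.43 to 80.4) in those of rat 2, on 8 and 4 UMIs in the endocrine sums. Crypt cells exceeded enterocytes 30.7-fold (9.81 to 155) and 183-fold (18.1 to 9012), the latter on 4 UMIs against 1. Of these 4 crypt UMIs, 3 lay in the larger of the 2 cells rich in Guca2b. Against immune cells the ratio was 4.48 (0.761 to 181) in rat 1, and crypt cells were at least 17.7-fold higher in rat 2, on the same 4 UMIs. In rat 1, where crypt cells were numerous, 33 of their 42 Prox1 UMIs lay in the 348 cells with 10 or more UMIs of the stem cell gene Olfm4 (5.63 CPM) and 9 in the other 721 cells (0.742 CPM). In rat 2 the 8 crypt cells rich in Olfm4 held 1 Prox1 UMI and the other 15 held 3, all in that cell rich in Guca2b.

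Pou2f3 had 11 and 1 UMIs in crypt cells against 2 and 2 in enterocytes, a ratio of 12.1 (2.63 to 112) in rat 1 and of 22.9 (0.388 to 439) in rat 2. The Olfm4-rich crypt cells of rat 1 held 9 of the 11 UMIs, in 4 cells. Tcf4, the E protein, stood 4.68-fold higher (2.77 to 8.16) and 10.6-fold higher (1.93 to 38.4) in crypt cells than in enterocytes, while its ratio of crypt to immune cells was below 1 and within counting error, at 0.557 (0.270 to 1.29) and 0.654 (0.131 to 2.00). Spib was 17.5-fold higher (5.32 to 91.0) in crypt cells than in enterocytes of rat 1, where the 24 crypt UMIs lay in 7 of 1069 cells, 11 of them in 1 cell. It was 80.1-fold higher (49.3 to 132) in rat 2, where all crypt UMIs lay in the 2 cells rich in Guca2b. The 5 Meis1 UMIs of crypt cells in rat 2 lay in 1 of these cells.

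**Figure D4:**
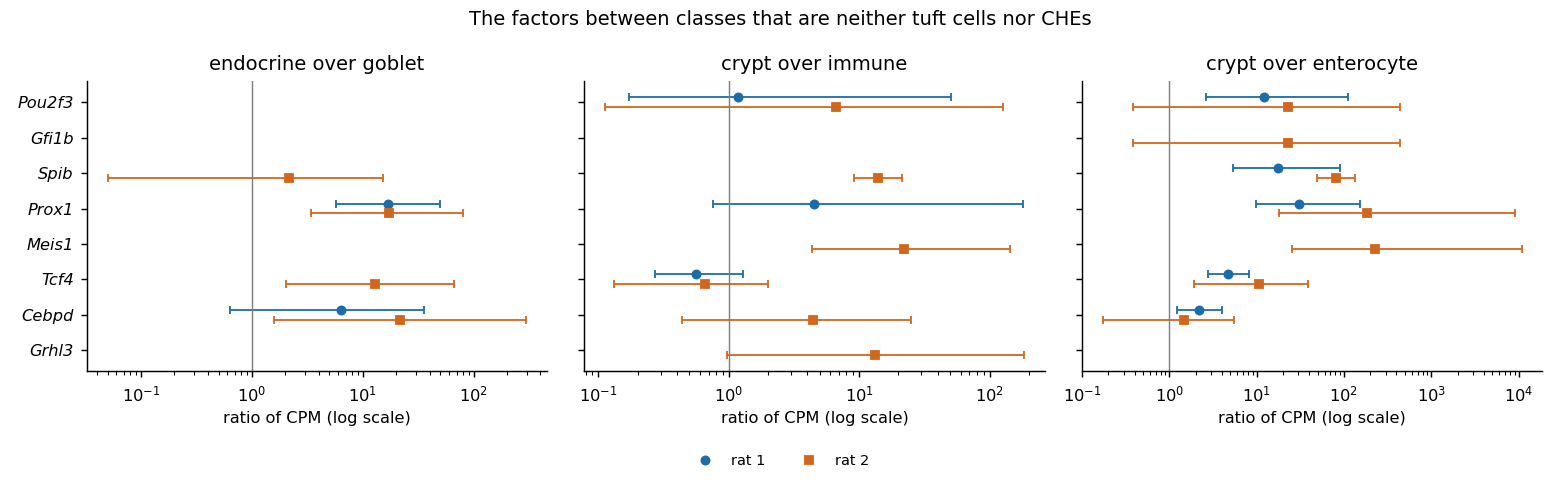
Ratio of CPM (horizontal axes, logarithmic) of the factors between endocrine and goblet cells, crypt and immune cells, and crypt cells and enterocytes, in rat 1 (circles) and rat 2 (squares) with exact 95% counting intervals, drawn where both classes held a UMI. Prox1 lies to the right of 1 in both rats in the first and the third panel with its whole interval, as do Spib and Tcf4 in the third. In rat 2 all crypt UMIs of Spib and 3 of the 4 of Prox1 lay in cells rich in Guca2b. The wide bars of most other factors show how few UMIs these classes held.

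Within immune cells, levels were compared between cells with a marker of B or plasmacytoid dendritic cells and no T cell marker (14 and 88 cells) and cells with a T cell marker alone (785 and 763 cells). The former are mostly cells with Irf8, which gave all 268 UMIs of these markers in immune cells of rat 1 and 1450 of 1857 in rat 2. Irf8 also stood at 49.6 and 58.8 CPM in enterocytes, so it does not by itself name B or plasmacytoid dendritic cells. In rat 2 Tcf4 stood at 42.7 CPM (23.9 to 70.5, 15 UMIs) in the former and 2.36 CPM (7 UMIs) in the latter, and in rat 1 at 45.2 CPM and 0.678 CPM from 1 UMI each. Cells with both kinds of marker, 196 and 675 in number, held the largest share of the Tcf4 UMIs, 7 of 9 in rat 1 (18.4 CPM) and 39 of 61 in rat 2 (14.3 CPM). Spib, known in B cells and plasmacytoid dendritic cells, stood in rat 2 at 51.3 CPM (30.4 to 81.1, 18 UMIs), at 1.01 CPM (3 UMIs) and, with both markers, at 9.16 CPM (25 UMIs), and had no UMI in immune cells of rat 1. Of the 3 measured B and plasmacytoid markers, Irf8 had 29 and 41 UMIs in tuft cells and 0 and 12 in CHEs, Cd79b had 1 and 8 in tuft cells and none in CHEs, and Ms4a1, which defines B cells, had none in either. Their summed level was 30.7 and 29.3 CPM in tuft cells and 0 and 13.4 CPM in CHEs, against 139.6 and 299.6 CPM in immune cells and 49.6 and 59.5 CPM in enterocytes. Leukocyte markers together made up 526 and 742 CPM of tuft cells and 560 and 389 CPM of CHEs. Cd74 gave 341 and 255 CPM of this in tuft cells and 547 and 53.8 CPM in CHEs. It stood at 1319 and 743 CPM in enterocytes and at 215 and 859 CPM in immune cells. Ptprc stood at 5.12 and 20.9 CPM in tuft cells and at 0 and 13.4 CPM in CHEs. When cells other than immune cells with a Ptprc UMI were left out, all 112 levels of the factors stayed within their counting intervals. The part of leukocyte transcripts in the levels of the factors was not tested.

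The closest relatives of the factors are given for comparison. Of 16 paralogs, Spic, Prox2, Meis2 and Cebpe had no UMI in tuft cells or CHEs of either rat. Grhl1, like Grhl3, had UMIs in CHEs of rat 2 (4 UMIs, 4.48 CPM) and none in tuft cells or in CHEs of rat 1. Spi1, the relative of Spib, stood at 0 and 7.78 CPM in tuft cells and 2.08 and 10.0 CPM in immune cells. Gfi1, the sister gene of Gfi1b, had at most 1 UMI in tuft cells and stood at 21.4 and 38.2 CPM in immune cells, and Pou2f2, an octamer factor of B cells, reached 1.20 CPM in tuft cells and 17.2 and 44.4 CPM in immune cells. Both were higher in immune than in crypt cells, with log2 fold changes of 5.86 ± 0.86 for Gfi1 and 6.97 ± 1.60 for Pou2f2 (adjusted p = 0.000520 and 0.00756, edgeR's quasi-likelihood test on the 14 UMI sums of rat and class, Benjamini-Hochberg adjustment over 10535 genes, threshold 0.05). In that contrast 12.5% of all genes were higher and 11.0% lower. Tcf3 and Tcf12, the other E proteins, were spread over the classes, Tcf3 at 27.6 and 14.4 CPM and Tcf12 at 17.4 and 26.3 CPM in tuft cells. Cebpb and Cebpg stood at 59.3 and 44.9 CPM and at 74.7 and 81.3 CPM in tuft cells, and at 76.3 and 71.7 CPM and at 50.9 and 56.0 CPM in CHEs.

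**Figure D5:**
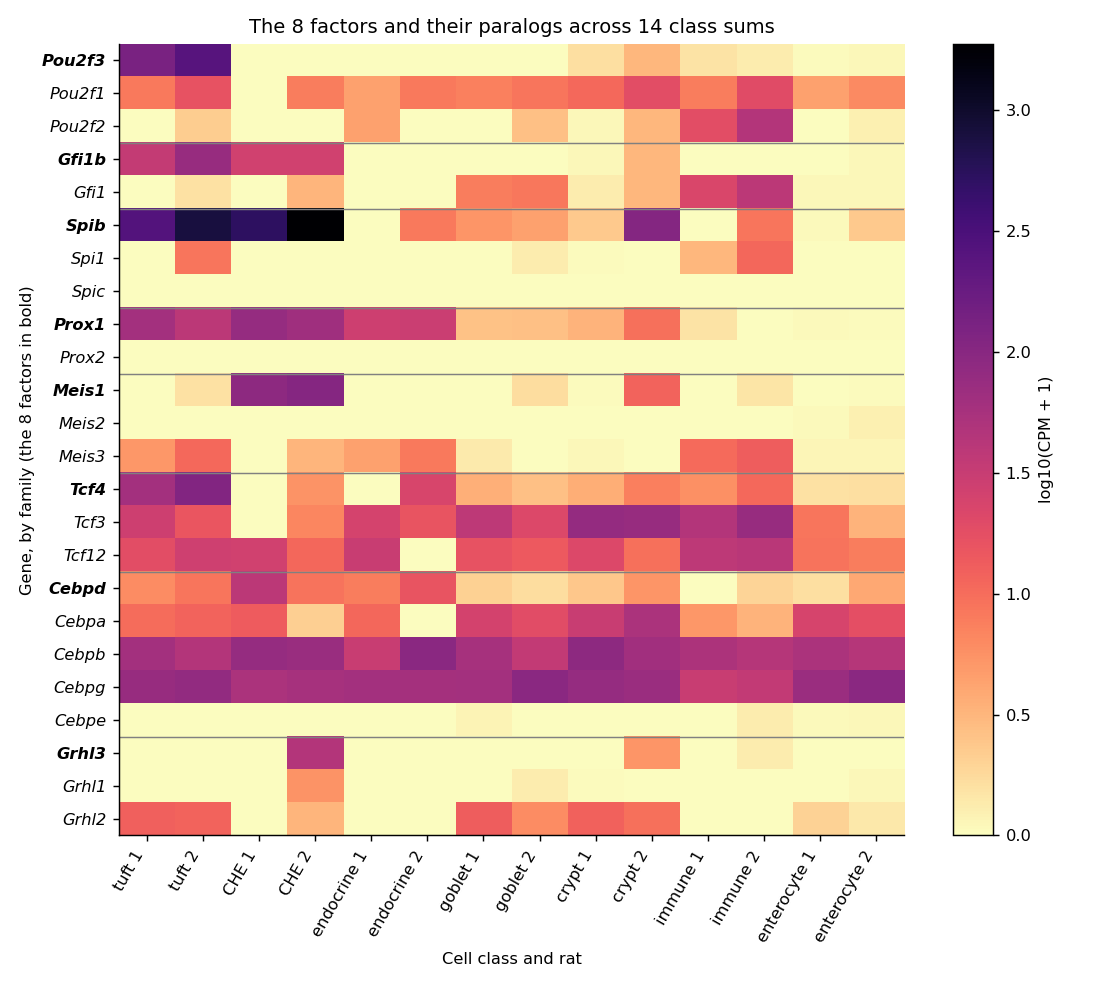
Levels, as log10(CPM + 1) in colour, of the 8 factors (bold) and their 16 paralogs (rows, grouped by family) in the 14 sums of 7 classes and 2 rats (columns). The rows of Pou2f3, Spib and Meis1 darken in the tuft cell or CHE columns, the rows of Pou2f2 and Gfi1 in the immune columns, and those of Cebpb and Cebpg in nearly all columns.

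Other factors and cofactors were tested in the same fit. The gene lists, paralogs included, were chosen with earlier results of these data known. The shares called are therefore a description, and the p-values are not independent of that choice. In tuft cells against the mean of the other 6 classes, 8 of 63 tested factors and cofactors from the lists of paralogs, partners and gut lineage factors were higher and none lower (12.7%, against 5.44% of all genes higher and 0.199% lower), and 15 had an unadjusted p under 0.05. Their median log2 fold change was 0.16, against 0.07 for all genes. With DESeq2 in place of edgeR 4 passed. Runx1, a factor of blood cells, was called with 54.2 and 140.0 CPM in tuft cells, against at most 5.73 and 14.5 CPM in any other class (log2 fold change 6.74 ± 0.59, edgeR adjusted p = 1.08e-05, alternatives 1.67e-40 to 3.50e-05). St18 and Myt1, zinc-finger factors of neurons and endocrine cells, stood at 16.4 and 21.5 CPM and at 6.14 and 15.6 CPM in tuft cells and at 40.3 and 7.29 CPM and at 43.7 and 21.9 CPM in endocrine cells, and the stem cell factor Ascl2 at 47.1 and 15.6 CPM against 30.8 and 49.4 CPM in crypt cells.

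Those 3 genes passed in edgeR (adjusted p = 0.000239 for St18, 0.000486 for Myt1 and 0.0102 for Ascl2) and not in DESeq2 (0.564, 0.617 and 0.427). Of the paralogs, Grhl2 (11.3 and 10.8 CPM) and Meis3 (4.09 and 9.57 CPM) passed with log2 fold changes of 3.75 ± 0.75 and 2.68 ± 0.55 (edgeR adjusted p = 0.0100 and 0.00781). Both were as high in another class, Grhl2 in crypt cells with 11.1 and 8.58 CPM and Meis3 in immune cells with 9.38 and 12.1 CPM, so they differed from the mean of the classes rather than marking tuft cells. Without tuft cells over 5000 UMIs the adjusted p of Meis3 was 0.195. Colca2, a cofactor gene linked to Pou2f3, had 0 and 7 UMIs in tuft cells and none in CHEs.

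In CHEs 5 of the 63 were higher and 1 lower (against 5.99% and 2.02% of all genes), 14 had an unadjusted p under 0.05, and the median log2 fold change was -0.17 against -0.34 for all genes. With the rat as a block 11 passed, and without a filter on low counts 12. Id1, an inhibitor of E proteins such as Tcf4, was called with 827 and 1459 CPM in CHEs and 509.5 and 658 CPM in tuft cells (log2 fold change 2.63 ± 0.39, edgeR adjusted p = 0.000940), while endocrine cells had 672 and 1575 CPM. The gut lineage factors Klf4 (407 and 1397 CPM), Gata5 (50.9 and 139 CPM) and the Notch target Hes1 (153 and 112 CPM) were called with log2 fold changes of 2.70 ± 0.50, 2.51 ± 0.42 and 2.37 ± 0.48 (edgeR adjusted p = 0.00479, 0.00238 and 0.00858). Hes1 stood at 88.4 and 139.5 CPM in crypt cells, and Gata5 at 66.8 and 40.1 CPM in enterocytes. Klf4 was also high elsewhere, at 339 and 931 CPM in goblet cells, 274 and 634 CPM in tuft cells and 257 and 461 CPM in enterocytes. Pknox1, a TALE factor related to Meis1, had no UMI in CHEs of either rat and 9.21 and 13.8 CPM in tuft cells (edgeR adjusted p = 0.0278, DESeq2 0.0818).

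Among the other contrasts the listed genes passed in the numbers 10 higher and 4 lower in endocrine against goblet cells (2.42% and 0.683% of all genes), 7 and 24 in immune against crypt cells (12.5% and 11.0%), and 7 and 15 in enterocytes against crypt cells (17.0% and 22.2%), with 26, 39 and 25 at an unadjusted p under 0.05. All 14 of the first were gut lineage factors, among them the endocrine factors Neurod1 (309 and 496 CPM) and Fev (97.4 and 138.5 CPM), which had no UMI in goblet cells, and the goblet factor Spdef (184 and 306 CPM), which had none in endocrine cells. From crypt cells to enterocytes the E protein Tcf3 fell by 3.06 (SE 0.60, edgeR adjusted p = 0.00201) and the Gfi1b partners Hdac2 and Kdm1a fell by 1.90 and 1.25 on the log2 scale (edgeR adjusted p = 0.00442 and 0.0234). Medians of the listed genes in these contrasts were -0.57, -1.61 and -0.31, against -0.29, -0.06 and -0.08 for all genes.

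Genes with the pattern most like each factor were read from Pearson correlations of log2(CPM + 10) over the 14 sums, among 11107 genes, as a description in which all points share 2 rats and differ in depth. For Pou2f3 they were Itprid1 (r = 0.999), Adgrg6 (0.998) and Hmx3 (0.998), all at 0 in CHEs. For Meis1 they were Sbspon (0.995), Ccnyl1 (0.982) and Atp7a (0.981), with Sbspon, an extracellular matrix protein, at 356 and 300.2 CPM in CHEs and 2.05 and 4.19 CPM in tuft cells. For Gfi1b, L1cam (0.975), Dio1 (0.961) and Fes (0.955) were found, and for Spib, Cwh43 (0.948), L1cam (0.932) and B3gnt8 (0.914). The adhesion molecule L1cam was thus near both, at 53.2 and 168 CPM in tuft cells and 63.6 and 84.0 CPM in CHEs.

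For Prox1 the nearest genes were B3gnt8 (0.961), Tnks (0.932) and Tubb2b (0.880), and for Tcf4 Slco3a1 (0.965), Tmem65 (0.961) and S100a1 (0.961). Grhl3 had Paqr6 (0.986), Wfdc1 (0.969) and AC114233.2 (0.963), each at 0 in CHEs of rat 1, and Cebpd had Necap1 (0.934), Bud31 (0.894) and Casz1 (0.880). With log2(CPM + 1) 11 of these 24 genes were named again for the same factor, among them none for Tcf4. Among the factors themselves the highest correlations were Pou2f3 with Tcf4 (0.915), Gfi1b with Spib (0.910) and Spib with Prox1 (0.809), and the lowest Meis1 with Tcf4 (-0.22) and Pou2f3 with Meis1 (-0.18).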

How the data were processed

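The authors deposited raw UMI counts per gene and barcode, 1 matrix per rat, made with Cell Ranger against Rnor6. The file headers name release 3.1.0 (first rat) or 5.0.1 (second rat), so the effects of release and animal cannot be told apart. Genes of near-identical families may share UMIs.

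The 8 factors, the gene lists and the classes were chosen with earlier results of these data known. Tuft cells and CHEs followed the rules given above. Endocrine cells needed 5 of 17 markers, goblet cells 5 of 7 and 3% of UMIs, immune cells 4 of 9 and under 0.3% epithelial UMIs, crypt cells 2 of 6 and under 1% enterocyte UMIs, and enterocytes 5% enterocyte UMIs, limits set after the marker distributions were seen. Doublets were kept: Scrublet (scanpy 1.11.5) called 3.99% of cells in rat 1 and 0.0362% in rat 2, where it has not worked.

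UMI counts were summed per rat and class (14 sums) and fitted in 1 model with edgeR 4.0.16 in R 4.3.3 (TMM, default low-count filter, quasi-likelihood test). The classes come from the same rats, which therefore pair the sums: over 21 pairs of classes, deviations of the rats correlated at 0.213 to 0.609. The main fit had no block, since the study names none. The test is reported for listed genes and not for the 8 factors, which were chosen with the levels of these classes in view. Intervals on ratios are exact and conditional. Named genes were, per list and direction, up to 4 with the largest fold change among those past 0.05 in the same direction in both rats, and the 3 most correlated per factor. DESeq2 1.42.0, normalization, filters, depth limits, stricter rules and doublet removal were alternatives, as were 4 chosen after the data were seen (removing cells with hemoglobin, with Ptprc, crypt cells with over 100 Guca2b UMIs, and tuft cells over 5000 UMIs). Of 84 listed genes 63 were tested. The test was tried on simulated counts.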

Additional observations from a re-analysis of the deposited data

Results flagged for a closer look

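Several groups of cells outside the classes carried the factors above the level in enterocytes. In rat 2, 31 barcodes that met the tuft rule but not the depth or mitochondrial limits gave 179 CPM of Pou2f3 (95.5 to 307, 13 UMIs) and 497 CPM of Spib (36 UMIs). Likewise 3 barcodes of rat 2 that met the CHE rule below those limits gave 1058 CPM of Spib (57 UMIs) and 92.8 CPM of Meis1 (5 UMIs).

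Cells with UMIs of only 1 of Best4 and Otop2 gave 1546 CPM of Spib in rat 1 (3 cells, 31 UMIs), 1093 CPM of Spib in rat 2 (32 cells, 258 UMIs) and 84.8 CPM of Meis1 in rat 2 (20 UMIs).

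In rat 2, 4 cells met the tuft and the CHE rule together, with 5 to 9 tuft markers, and gave 116 CPM of Pou2f3 (49.9 to 228, 8 UMIs) and 1806 CPM of Spib (125 UMIs). Their depths were 8606, 8944, 21788 and 29893 UMIs. Scrublet has not worked in that library, so whether these are doublets was not tested.

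Unassigned barcodes rich in hemoglobin (418 and 606 in number) gave 4.47 CPM of Gfi1b in rat 1 (1.64 to 9.74, 6 UMIs) and 8.39 CPM in rat 2 (5.48 to 12.3, 26 UMIs).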

How the results depend on the processing

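The number of listed genes called in tuft cells was 8 in the reported fit and 4 with DESeq2. In CHEs it was 6, 12 without a filter on low counts and 11 with the rat as a replicate block. The number of factors with their highest level in tuft cells or CHEs was 6 of 8, and 7 with either rat left out alone, adding Grhl3 without rat 1 and Cebpd without rat 2. Of the 24 genes most like the factors 11 were named again with a pseudocount of 1. Listed genes called ranged over the alternatives from 13 to 20 in endocrine against goblet cells, 24 to 39 in immune against crypt cells and 20 to 29 in enterocytes against crypt cells.

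Over all genes, the block raised the calls in CHEs from 844 to 1521 and in endocrine against goblet cells from 327 to 664. Without a filter the calls were 950 in tuft cells, 1490 in CHEs and 895 in endocrine against goblet cells, and DESeq2 gave 537 in the last. Over 5000 UMIs per cell left 373 in tuft cells and 1121 in immune against crypt cells. The causes were not tested. DESeq2-type size factors moved the median of all genes from -0.29 to -0.10 in endocrine against goblet, from -0.06 to 0.08 in immune against crypt and from -0.08 to -0.29 in enterocytes against crypt cells.

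Of 1120 levels of the factors under alternatives, 44 moved beyond their counting interval. Of 1101 fold changes none was reversed, 28 lost and 5 gained a call and 73 moved. With 1 sum per class no test can be fitted when a rat is left out. Of 138 values from 1 rat alone, 3 had the opposite sign, and 26 without rat 1 and 43 without rat 2 moved by more than the SE of the fit. Depth limits CHEs of rat 1 (6 cells) and endocrine cells of rat 2 (12 cells), where 3 UMIs equal 38.2 and 21.9 CPM, more than the other classes.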
